A study of Mus musculus with 16 samples.

Results

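Prostaglandins are short-lived lipid signals made from arachidonic acid, which phospholipases free from membranes. The cyclooxygenases turn arachidonic acid into the common intermediate PGH2, terminal synthases turn PGH2 into PGE2, PGD2, PGF2alpha, prostacyclin or thromboxane, and each product acts through its own G protein-coupled receptors. In the uterus these signals are known for roles in implantation, blood flow and contraction of the muscle wall. The genes described here are 10 members of this system, matched by gene name to the probes of the arrays: the cyclooxygenase genes Ptgs1 and Ptgs2, the terminal synthase genes Ptges, Ptgis and Ptgds, and the receptor genes Ptgdr, Ptger2, Ptger3, Ptger4 and Ptgfr. All 10 were on the array and all 10 passed the filter on dim signals, among 25862 genes tested in all.

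RNA of whole uteri was measured on 16 one-colour Agilent arrays of 60-base probes, 4 per group. The groups were Arg260 mice given 17beta-estradiol (E2), wild-type (WT) mice given E2, Arg260 mice given vehicle (PLB) and WT mice given PLB. The series title places Arg260 in ERalpha, the estrogen receptor encoded by Esr1, and the labels do not say how the allele was made. All mice had been ovariectomised at 4 weeks of age and kept for 2 to 3 weeks, which removes ovarian estrogen. They were then sampled 6 h after a subcutaneous injection of 8 ug/kg E2 in castor oil, or of castor oil with 0 ug/kg. The labels number the samples of a group from 1 to 4 without saying whether each was 1 mouse, so the p-values measure the spread between these samples.

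A level below is the log2 of a probe's processed signal minus the log2 of the 75th percentile of its array. Levels of different probes are not comparable with each other, since probes differ in brightness. A change is the mean level after E2 minus that after PLB, fitted with limma across all genes and called at a Benjamini-Hochberg adjusted p under 0.05 over all genes. Of all genes tested, 64.3% were called in Arg260 uteri (33.6% higher and 30.7% lower) and 63.5% in WT uteri (31.9% higher and 31.7% lower), so most genes tested differed between treatments. Shares of all genes below are shares of the genes that passed the filter. Without the filter, 16316 of 34741 genes were called in Arg260 and 16128 in WT. Scaling each array to its median in place of its 75th percentile moved the median change of all genes by 0.14 in Arg260 and by 0.15 in WT, and changed no member's direction or call.

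Between 36505 and 41890 spots per array were well above background, and no spot was saturated. As a check of the labels, Pgr, the progesterone receptor gene known to be induced by estrogen in the uterus, rose by 2.37 in Arg260 and by 2.12 in WT uteri. Esr1 itself was detected on each of the 16 arrays, but its 4 tested probes disagreed on the direction of the E2 change, and the labels do not say whether any of them covers the altered residue. All 7 uterine identity genes passed the filter on dim signals, with an averaged log2 level of 2.11 to 2.47 in Arg260 E2, 2.16 to 2.30 in WT E2, 2.32 to 2.60 in Arg260 PLB and 2.28 to 2.58 in WT PLB. Markers of other tissue compartments also moved with treatment. Of 7 stromal markers, 5 were called lower after E2 in each genotype, and their averaged level was 3.91 to 4.29 in Arg260 E2 and 3.71 to 4.76 in WT E2, against 4.87 to 5.57 in Arg260 PLB and 4.66 to 5.44 in WT PLB. Of 7 adipocyte markers, 2 were called lower in Arg260 and 7 in WT, with averaged levels of -3.34 to -0.59 in Arg260 E2, -5.13 to -1.60 in WT E2, -0.996 to 0.47 in Arg260 PLB and -0.71 to 1.22 in WT PLB. Among them 1 marker, counted as lower in both genotypes, was not well above background on any E2 array. It passed the filter only through PLB arrays, so its calls and its part in the averages rest on readings below background. Epithelial markers were called higher for 4 of 7 in Arg260 and 2 of 7 in WT, with 1 lower in each, at averaged levels of 3.32 to 3.71 in Arg260 E2, 3.29 to 3.56 in WT E2, 3.13 to 3.50 in Arg260 PLB and 3.05 to 3.59 in WT PLB. Of 7 smooth muscle markers, 1 was called higher and 1 lower in Arg260, and 3 higher and 1 lower in WT. Of 6 tested mast cell markers, 1 was called higher and 3 lower in Arg260, and 1 higher and 1 lower in WT. Of 7 endothelial markers, 2 were called higher in Arg260, and 1 higher and 3 lower in WT. For neutrophils 1 of 6 tested markers was called higher in each genotype, for eosinophils 1 of 4 was lower in each, for lymphocytes 2 of 7 were lower in WT, for ovary and oviduct 1 of 6 was higher and 1 lower in each, and for blood 0 of 4 were called. The ovary and oviduct marker called higher was not well above background on any PLB array. It passed the filter only through E2 arrays, so its calls rest on readings below background. In RNA of whole tissue, fewer cells of a type and less RNA per cell cannot be told apart, and the part of these markers in the changes below was not tested.

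At 6 h after E2, 3 of the 5 synthesis genes (Ptgs2, Ptges and Ptgis) were called higher in both genotypes, and 4 of the 5 receptor genes (Ptgdr, Ptger2, Ptger4 and Ptgfr) were called lower in both. Ptgdr was not well above background on any E2 array and passed the filter only through the PLB arrays, where it was high. The counts and medians of this paragraph include its readings below background. Ptgds, a synthesis gene, was called lower in WT, and Ptgs1, the fifth, was not called. In Arg260 uteri 7 of the 10 members were called (3 higher, 4 lower), beside 64.3% of all genes. In WT uteri 9 of 10 were called (3 higher, 6 lower), beside 63.5% of all genes. Ptgds and Ptger3 were the members called in WT alone, and their difference between genotypes was not called. The median change of the members was -0.40 in Arg260 and -0.87 in WT, beside 0.02 over all genes in Arg260 and -0.02 in WT. The 4 E2 arrays did not overlap the 4 PLB arrays for 8 of the 10 members in Arg260 and for 9 in WT, while 58.7% and 59.1% of all genes had no overlap.

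**Figure D1:**
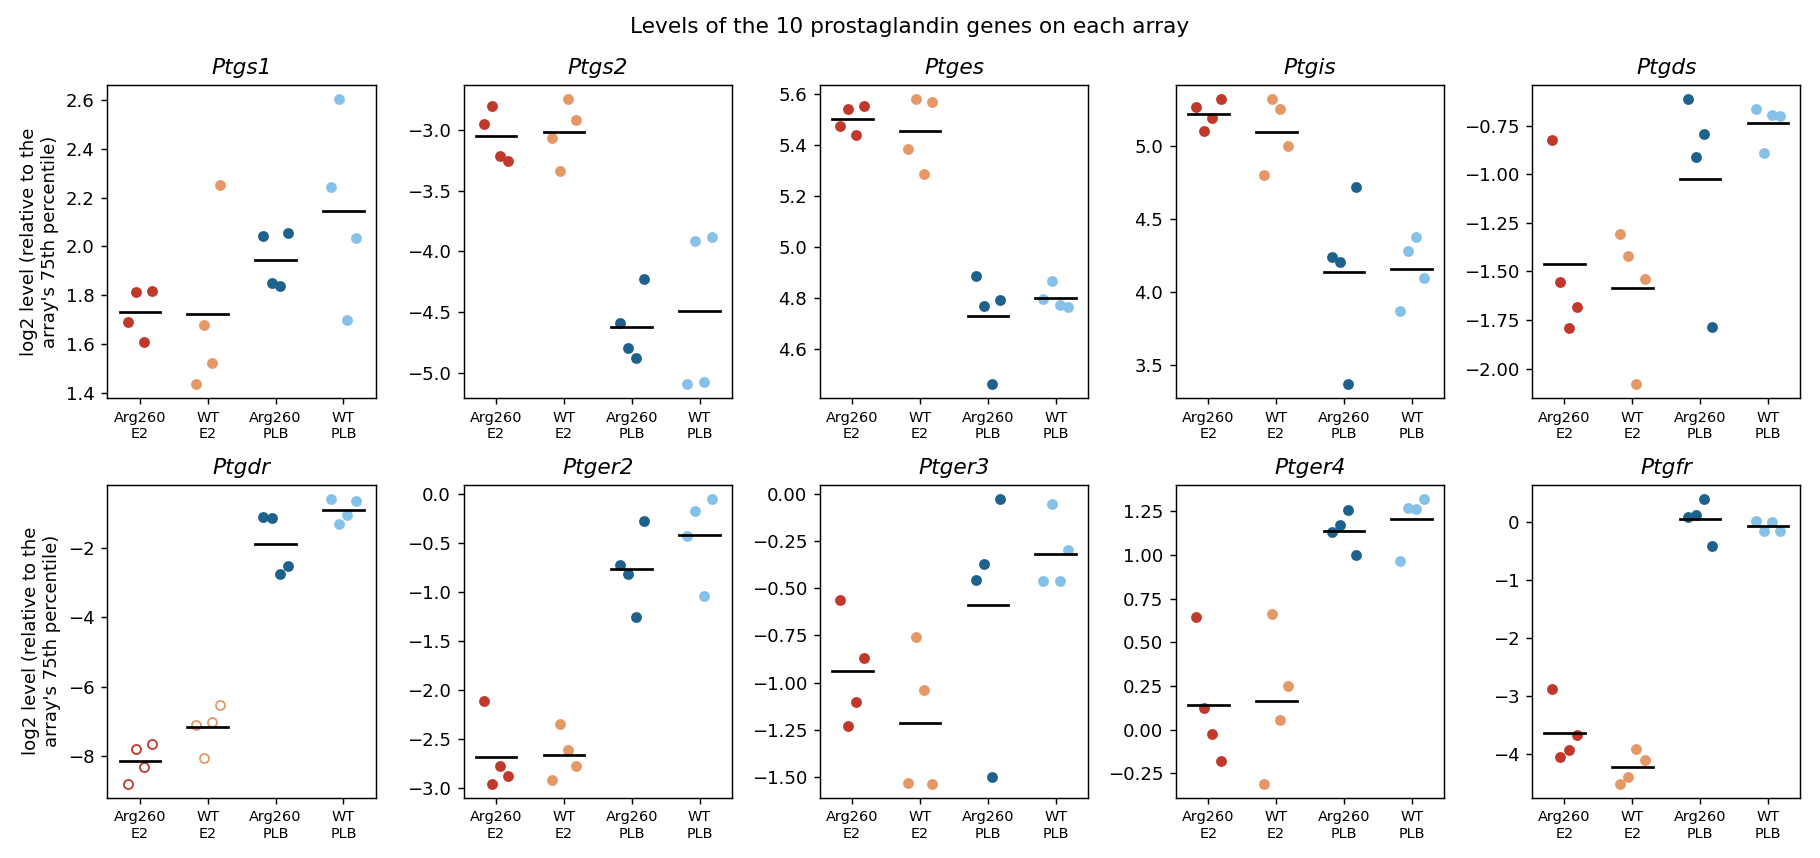
Log2 level of each of the 10 genes on every array (points) with the group mean (bar), for Arg260 E2, WT E2, Arg260 PLB and WT PLB; the y axis differs between panels and open points were not well above background. The E2 groups lie above the PLB groups for Ptgs2, Ptges and Ptgis and below them for Ptgdr, Ptger2, Ptger4 and Ptgfr, with both genotypes side by side within each treatment.

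Ptgs2 encodes COX-2, the inducible cyclooxygenase. Its levels on the 4 arrays were -2.94, -2.80, -3.21 and -3.25 in Arg260 E2, -3.07, -3.34, -2.74 and -2.91 in WT E2, -4.59, -4.80, -4.88 and -4.22 in Arg260 PLB and -5.09, -3.91, -5.08 and -3.88 in WT PLB. Every E2 array lay above every PLB array, and within WT PLB replicates 2 and 4 lay nearer to the E2 arrays than to replicates 1 and 3. Ptgs2 rose 2.97-fold in Arg260 (log2 change 1.57 ± 0.27, SE, n = 4 per group, limma adjusted p = 0.000130) and 2.78-fold in WT (1.48 ± 0.27, adjusted p = 0.000232). Its probe was printed as 10 spots, whose signals were averaged, and its raw intensity was low, at 29.1 to 164. With normexp background correction and quantile normalization the rise was 0.92 in Arg260 and 0.88 in WT, still called in both.

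Ptgs1 encodes COX-1, the constitutive cyclooxygenase. Its levels were 1.69, 1.81, 1.61 and 1.82 in Arg260 E2 and 1.44, 1.68, 1.52 and 2.25 in WT E2, against 2.04, 1.85, 1.84 and 2.05 in Arg260 PLB and 2.24, 2.60, 1.70 and 2.03 in WT PLB. The E2 arrays all lay below the PLB arrays in Arg260 but overlapped them in WT. The change was -0.21 ± 0.19 (SE) in Arg260 (adjusted p = 0.333) and -0.42 ± 0.19 in WT (adjusted p = 0.0606), so neither passed. The WT value turned on single arrays: it was -0.60 (adjusted p = 0.00589) without WT E2 replicate 4 and -0.57 (adjusted p = 0.0129) without WT PLB replicate 3, but -0.27 (adjusted p = 0.203) without WT PLB replicate 2. Quantile normalization called Ptgs1 lower in both genotypes, with -0.45 in Arg260 (adjusted p = 0.0426) and -0.63 in WT (adjusted p = 0.00758).

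Ptges encodes the inducible microsomal PGE synthase that works together with COX-2. It had 2 probes, whose target stretches lie 3219 bases apart on the minus strand of chromosome 2 (mm9, the build of the files) and which the files assign to the same transcript; the file does not say in which exon or UTR they lie. The first 30 bases of each 60-base probe are shown because the 2 gave changes of very different size.
Ptges brighter probe, chr2:30744995-30745054: atgataaaggactaaacctctgaacctgta
Ptges dimmer probe, chr2:30748214-30748273: aaccctctgatcgcctggatacatttcctc
The brighter one, which stood for the gene in the fit, read 5.47, 5.54, 5.44 and 5.55 in Arg260 E2 and 5.38, 5.58, 5.29 and 5.57 in WT E2, against 4.89, 4.77, 4.46 and 4.79 in Arg260 PLB and 4.79, 4.87, 4.77 and 4.76 in WT PLB. Its E2 and PLB arrays did not overlap, and it rose 1.71-fold in Arg260 (0.78 ± 0.09, adjusted p = 3.28e-06) and 1.58-fold in WT (0.66 ± 0.09, adjusted p = 1.82e-05). The dimmer one read 1.92, 2.04, 1.75 and 2.04 in Arg260 E2 and 1.51, 2.02, 1.65 and 1.93 in WT E2, against -2.72, -2.42, -3.17 and -1.89 in Arg260 PLB and -2.81, -2.30, -2.62 and -2.34 in WT PLB. It rose 22.4-fold in Arg260 (4.49 ± 0.22) and 19.6-fold in WT (4.29 ± 0.22), with adjusted p-values over all 38683 probes of 4.89e-10 in Arg260 and 7.07e-10 in WT. Both probes rose in both genotypes, so the direction is shared and the size is not settled.

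The size of the gap is rare on this array. Among 8026 genes with several tested probes, the probes' E2 changes differed by at least as much as those of Ptges (3.71 in Arg260, 3.64 in WT) for 0.411% of genes in Arg260 and 0.486% in WT, where the median gap was 0.34 in each. The brighter Ptges probe had raw intensities of 26166 to 54098, with no saturated spot. Of the 2256 genes with a mean level of 4 or more, 19.9% changed at least 2-fold in Arg260 and 18.3% in WT, against 29.8% and 29.6% of all genes tested. Quantile normalization brought the rise of the brighter probe to 0.27 in Arg260 and 0.21 in WT, and averaging both probes brought it to 2.63 and 2.47, with the gene called in each case. The cause of the gap was not tested.

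Ptgis encodes prostacyclin synthase, and it too had 2 probes, 11379 bases apart on the minus strand of chromosome 2. The brighter one is assigned to a RefSeq transcript and the dimmer to an Ensembl transcript. The brighter probe, which stood for the gene, read 5.27, 5.10, 5.19 and 5.32 in Arg260 E2 and 4.80, 5.32, 5.25 and 4.997 in WT E2, against 4.24, 4.20, 3.37 and 4.72 in Arg260 PLB and 3.87, 4.28, 4.37 and 4.10 in WT PLB. It rose 2.12-fold in Arg260 (1.09 ± 0.22, adjusted p = 0.000520) and 1.91-fold in WT (0.94 ± 0.22, adjusted p = 0.00171) with no overlap of E2 and PLB arrays, although Arg260 PLB replicate 3 lay well below the other 3 of its group. Without that array the Arg260 rise was 0.83. The dimmer probe read -1.20, -0.86, -0.96 and -1.17 in Arg260 E2 and -1.20, -0.42, -1.17 and -0.86 in WT E2, against -4.14, -4.35, -4.40 and -4.05 in Arg260 PLB and -4.32, -4.09, -4.04 and -4.28 in WT PLB, a rise of 9.12-fold (3.19 ± 0.16) in Arg260 and 9.66-fold (3.27 ± 0.16) in WT. A gap between probes at least as large as that of Ptgis was found for 3.03% of genes with several probes in Arg260 and 2.47% in WT. With quantile normalization the rise of the brighter probe was 0.57 in Arg260 and 0.48 in WT, still called.

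**Figure D2:**
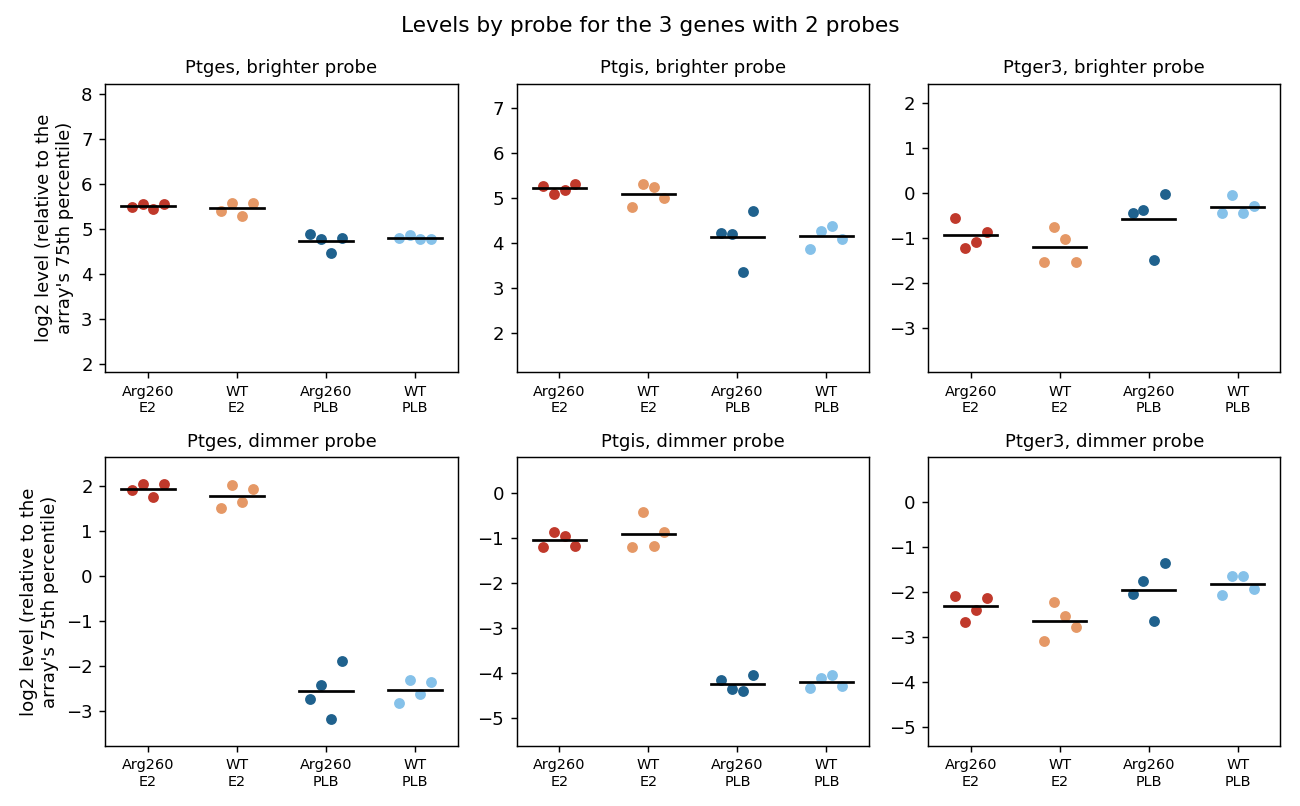
Log2 level on every array (points) and group mean (bar) for the brighter and the dimmer probe of Ptges, Ptgis and Ptger3, with every panel spanning the same number of log2 units. For Ptges and Ptgis the dimmer probe separates E2 from PLB more widely than the brighter one, while the 2 Ptger3 probes change alike.

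Ptgds encodes the lipocalin-type PGD synthase. Its levels were -0.82, -1.56, -1.79 and -1.68 in Arg260 E2 and -1.31, -1.42, -2.08 and -1.54 in WT E2, against -0.61, -0.91, -0.79 and -1.78 in Arg260 PLB and -0.67, -0.89, -0.69 and -0.70 in WT PLB. In WT every E2 array lay below every PLB array, and Ptgds fell by 0.85 ± 0.26 (adjusted p = 0.00944). In Arg260 replicate 1 of E2 lay among the PLB arrays and replicate 4 of PLB among the E2 arrays, and the change was -0.44 ± 0.26 (adjusted p = 0.149). The Arg260 change was -0.65 (adjusted p = 0.0306) without that E2 array and -0.69 (adjusted p = 0.0135) without that PLB array, and over all omissions of 1 array it ranged from -0.69 to -0.30. The difference of the 2 responses was 0.41 (Arg260 minus WT, 95% interval -0.36 to 1.19), which did not pass (adjusted p = 0.9998).

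Ptgfr encodes the PGF2alpha receptor FP, which drives contraction of uterine muscle. It fell 12.8-fold in Arg260 and 17.9-fold in WT, the largest falls among the 9 members measured above background in every group. Its levels were -2.89, -4.05, -3.93 and -3.68 in Arg260 E2 and -4.51, -4.39, -3.92 and -4.11 in WT E2, against 0.08, 0.11, 0.39 and -0.42 in Arg260 PLB and 0.02, -0.16, -0.00 and -0.16 in WT PLB. No E2 array came near a PLB array. The log2 change was -3.68 ± 0.23 in Arg260 (adjusted p = 4.38e-09) and -4.16 ± 0.23 in WT (adjusted p = 1.30e-09).

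Ptgdr encodes DP1, a receptor for PGD2. None of the 8 E2 arrays read it well above background, with readings of -8.79, -7.80, -8.32 and -7.64 in Arg260 E2 and -7.10, -8.07, -7.01 and -6.53 in WT E2, while all 8 PLB arrays did, at -1.11, -1.16, -2.76 and -2.53 in Arg260 PLB and -0.60, -1.32, -1.05 and -0.67 in WT PLB. A reading below background gives only a limit, so each E2 array was set to the higher of its own reading and the lowest level well above background on that array. With the E2 arrays set this way, Ptgdr was 19.4-fold lower after E2 in Arg260 and 42.0-fold lower in WT, on the scale of the processed signal. That lowest level is an extreme over all spots of an array, and some probes that were not well above background read higher. The folds are therefore approximate limits, and the true falls may be smaller. The fit of the readings themselves, below background included, gave a change of -6.25 ± 0.41 in Arg260 (adjusted p = 7.86e-09) and -6.27 ± 0.41 in WT (adjusted p = 7.72e-09); these p-values belong to the readings and not to the limits. Ptgdr passed the filter on dim signals only through the PLB arrays, where it was high. On other scales the change was smaller than these limits: it was -2.34 in Arg260 and -3.05 in WT with normexp, which adds an offset of 50 to every signal, and -3.34 and -4.03 in the series table. Replicates 3 and 4 of Arg260 PLB lay below all other PLB arrays.

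Ptger2 and Ptger4 encode EP2 and EP4, the PGE2 receptors that raise cyclic AMP. Ptger2 read -2.11, -2.95, -2.77 and -2.88 in Arg260 E2 and -2.92, -2.35, -2.61 and -2.77 in WT E2, against -0.72, -0.82, -1.26 and -0.28 in Arg260 PLB and -0.43, -0.17, -1.05 and -0.05 in WT PLB. It fell 3.75-fold in Arg260 (-1.91 ± 0.25, adjusted p = 9.29e-06) and 4.71-fold in WT (-2.24 ± 0.25, adjusted p = 1.86e-06), with E2 and PLB arrays apart. Ptger4 read 0.64, 0.13, -0.03 and -0.18 in Arg260 E2 and -0.31, 0.66, 0.05 and 0.25 in WT E2, against 1.13, 1.17, 1.26 and 1.001 in Arg260 PLB and 0.96, 1.27, 1.26 and 1.32 in WT PLB. Its E2 arrays spread widely but all stayed below the PLB arrays, and it fell 2.0-fold in Arg260 (SE 0.19 on the log2 scale, adjusted p = 0.000362) and 2.06-fold in WT (-1.04 ± 0.19, adjusted p = 0.000261). Ptger2 and Ptgdr are neighbours: their probes lie 151 kb apart on chromosome 14 (mm9), and RefSeq (GRCm38.p6) lists 4 genes between them, 0 of them protein-coding.

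Ptger3 encodes EP3, the PGE2 receptor that mainly lowers cyclic AMP. It read -0.56, -1.23, -1.10 and -0.87 in Arg260 E2 and -1.53, -0.76, -1.04 and -1.54 in WT E2, against -0.46, -0.37, -1.50 and -0.03 in Arg260 PLB and -0.46, -0.06, -0.46 and -0.30 in WT PLB. In WT all E2 arrays lay below all PLB arrays and Ptger3 fell by 0.90 ± 0.27 (adjusted p = 0.00994), while in Arg260 the groups overlapped through PLB replicate 3 and the change was -0.35 ± 0.27 (adjusted p = 0.275). Without that array the Arg260 change was -0.66 (adjusted p = 0.0141), and without PLB replicate 4, the highest of the group, it was -0.16 (adjusted p = 0.623). The second Ptger3 probe, 39464 bases away, gave -0.37 in Arg260 and -0.83 in WT. On Arg260 PLB replicate 3 macrophage markers were high: their averaged level was 2.96 there, against 1.23 to 1.60 on the other 3 Arg260 PLB arrays, and the ranges of the other groups were 1.03 to 1.40 in Arg260 E2, 1.002 to 1.26 in WT E2 and 1.30 to 1.47 in WT PLB. All 7 macrophage markers were tested, and 1 was called higher and 2 lower after E2 in each genotype. Other compartments were also off on that array. Smooth muscle markers averaged 4.998 there, against 5.45 to 6.05 on the other 3 Arg260 PLB arrays. Endothelial markers averaged 0.88, against 1.15 to 1.25, and eosinophil markers -2.09, against -3.37 to -3.29. The part of any of these markers in the Ptger3 value was not tested.

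**Figure D3:**
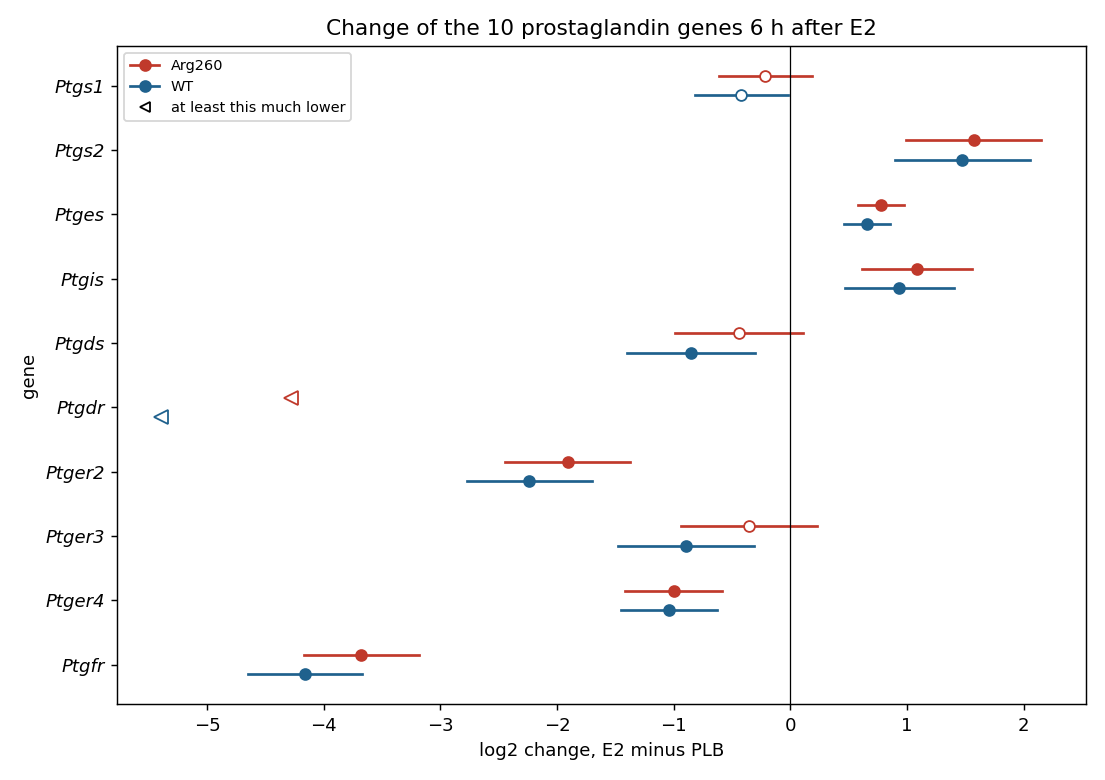
Log2 change of each gene, E2 minus PLB, with its 95% interval from limma, in Arg260 (above) and WT (below). Filled points passed the threshold, and triangles give an approximate limit for the fall of Ptgdr. The legend calls them at least this much lower, but the true falls may be smaller. Ptgs2, Ptges and Ptgis lie right of 0 in both genotypes, and the intervals of Arg260 and WT overlap for every gene that has one.

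No member's E2 response passed a test for a difference between the genotypes. A test of the difference in response called 0 of the 10 members and 0.0% of all genes, and 0 members (961 genes) had an unadjusted p under 0.05. Leaving out Ptgdr, which has no level after E2, the difference (Arg260 minus WT) ranged over the other 9 members from 0.04 for Ptger4 to 0.54 for Ptger3, and their 95% intervals reached from -0.73 to 1.37, so the intervals of some members include differences of more than 2-fold. All 9 differences were positive, but the 3 rising and 6 falling genes share the same arrays and the same scaling, so they are not independent.

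Between genotypes within a treatment, 0 members and 0.0% of all genes were called in PLB, and likewise 0 members and 0.0% in E2. The Arg260 and WT arrays overlapped for all 10 members in both treatments, while 1.66% of all genes in PLB and 3.96% in E2 had no overlap. Without hormone, Arg260 minus WT ranged from -0.35 for Ptger2 to 0.11 for Ptgfr over the 9 members other than Ptgdr. Ptgdr averaged -1.89 ± 0.88 in Arg260 PLB and -0.91 ± 0.34 in WT PLB (SD, n = 4 each), a difference of -0.98 with an unadjusted limma p of 0.0327 and an adjusted p of 0.9996. That difference was -0.18 within slide 1 and -1.78 within slide 2, which holds replicates 3 and 4. After E2 the differences of the 9 members ranged from -0.04 for Ptgs2 to 0.60 for Ptgfr (unadjusted p = 0.0210, adjusted p = 0.631). The Ptgfr difference was 0.35 without Arg260 E2 replicate 1, and it was 0.98 within slide 1 and 0.21 within slide 2. In each gene the order of the 4 groups followed treatment first, and the genotypes within a treatment were neighbours whose arrays overlapped.

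The E2 and PLB arrays of each group lay on both of 2 slides. Computed within slide 1 and within slide 2, the E2 change of each of the 10 members in each genotype kept its sign on both slides in 19 of 20 cases. The exception was Ptgs1 in WT, at -0.86 on slide 1 and 0.02 on slide 2. Ptgs2 gave 1.82 and 1.32 on slides 1 and 2 in Arg260 and 1.30 and 1.65 in WT, and Ptgfr gave -3.57 and -3.79 in Arg260 and -4.39 and -3.93 in WT. Ptges gave 0.68 and 0.87 in Arg260 and 0.65 and 0.66 in WT, and Ptgis gave 0.96 and 1.21 in Arg260 and 0.98 and 0.89 in WT. Among the receptors, Ptger2 gave -1.76 and -2.05 in Arg260 and -2.33 and -2.14 in WT, and Ptger4 gave -0.77 and -1.23 in Arg260 and -0.94 and -1.14 in WT. The smaller changes kept their sign on both slides: Ptgds gave -0.43 and -0.45 in Arg260 and -0.58 and -1.11 in WT, and Ptger3 gave -0.48 and -0.22 in Arg260 and -0.88 and -0.91 in WT.

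Upstream of the cyclooxygenases, the phospholipase and lipase genes that free arachidonic acid moved in both directions. Of 16 such genes 13 were tested, and 2 were called higher and 5 lower in each genotype, with a median change of -0.12 in Arg260 and -0.31 in WT. Among all genes tested, 33.6% were called higher and 30.7% lower in Arg260, and 31.9% and 31.7% in WT. This list and the lists below were chosen with earlier results known, so nothing is read from their counts. Mgll, which encodes monoacylglycerol lipase, rose by 0.94 in Arg260 and 0.75 in WT, though the changes of its 4 tested probes ranged from -0.06 to 0.94 in Arg260 and from -0.19 to 0.85 in WT. Pla2g12a, a secreted phospholipase A2 gene, rose by 0.31 and 0.32. Among the falling genes Pla2g10, a secreted phospholipase A2, changed by -2.43 in Arg260 and -1.71 in WT. Pla2g4e, a cytosolic phospholipase A2 gene, was not well above background on any E2 array and passed the filter only through PLB arrays. Its readings below background ranked it among the largest falls. Against the same approximate limit as for Ptgdr, it was 1.71-fold lower in Arg260 and 1.90-fold lower in WT. Pla2g3 and Pla2g4a, named after their values were seen, were detected on all 16 arrays. They changed by -1.16 and -1.69 in Arg260 and by -1.51 and -1.16 in WT.

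The remaining terminal synthase genes were also divided, with 4 of 8 called higher and 3 lower in each genotype. The shares of all genes tested were 33.6% higher and 30.7% lower in Arg260, and 31.9% and 31.7% in WT. Ptges2, a second membrane-associated PGE synthase gene, rose by 1.97 in Arg260 and 2.17 in WT, and Akr1b7, an aldo-keto reductase with PGF synthase activity, rose by 2.23 and 1.99. Prxl2b, a prostamide and PGF synthase gene, fell by 1.70 in Arg260 and by 1.73 in WT. Cbr1, a carbonyl reductase able to turn PGE2 into PGF2alpha, fell by 1.14 and by 1.20. Each of these 4 genes had 1 tested probe, which was detected on every array.

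Of the receptor-related genes outside the 10 members, Ptgir, the prostacyclin receptor gene, fell by 1.60 in Arg260 and 1.75 in WT, and Tbxa2r, the thromboxane receptor gene, fell by 1.27 and 1.04. Ptger1, named after its values were seen, was the only one called higher, at 0.59 in Arg260 (limma adjusted p = 0.0308), with 0.33 in WT (adjusted p = 0.206). Over the 9 genes that encode prostanoid receptors, members included, 6 were called lower and 1 higher in Arg260, and 7 lower and 0 higher in WT. Ptgdr, read below background after E2, is counted among those lower. Of all genes tested, 30.7% were called lower in Arg260 and 31.7% in WT, and all 9 genes were picked with earlier results known, so nothing is read from the difference.

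The transport and breakdown genes included large changes in both directions. Hpgd encodes 15-hydroxyprostaglandin dehydrogenase, which inactivates prostaglandins, and it averaged -1.39 in Arg260 E2 and -1.64 in WT E2, against 1.69 in Arg260 PLB and 1.68 in WT PLB. It fell by 3.08 ± 0.17 in Arg260 and by 3.32 ± 0.17 in WT (SE; adjusted p = 1.06e-09 and 5.56e-10), and its 2 tested probes changed by -3.08 and -3.05 in Arg260 and by -3.32 and -3.38 in WT. Slco2a1 encodes the transporter that carries prostaglandins into cells for breakdown, and it averaged 3.58 in Arg260 E2 and 3.37 in WT E2, against 0.82 in Arg260 PLB and 0.79 in WT PLB, a rise of 2.77 and 2.58. Ptgr1, a prostaglandin reductase gene, fell by 0.90 in Arg260 and 0.94 in WT. In all, 1 of 5 genes of the list was called higher and 4 lower in each genotype. Beside this, 33.6% of all genes tested were called higher and 30.7% lower in Arg260, and 31.9% and 31.7% in WT. The list was chosen with earlier results known, so nothing is read from its count.

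In the lipoxygenase and leukotriene branch, which competes for the same fatty acid, 11 of 12 genes were tested and 1 was called higher and 3 lower in each genotype. The shares of all genes tested were 33.6% higher and 30.7% lower in Arg260, and 31.9% and 31.7% in WT. Alox5ap, whose product presents arachidonic acid to 5-lipoxygenase, rose by 0.60 in Arg260 and 0.62 in WT. Aloxe3, an epidermal-type lipoxygenase gene, fell by 1.83 in Arg260 and by 2.30 in WT, and Ltc4s, the leukotriene C4 synthase gene, fell by 0.59 and by 0.78. Among 5 tested genes known to induce Ptgs2 or to bind its RNA, 4 were called higher in Arg260 and 5 in WT, with 0 lower. Of all genes tested, 33.6% were called higher in Arg260 and 31.9% in WT. The list was chosen with earlier results known, so nothing is read from its count. Cebpb, a transcription factor gene, rose by 3.0 in Arg260 and 2.85 in WT, and Zfp36, whose product speeds decay of AU-rich RNAs, rose by 2.02 and 1.93. Tnf, named after its values were seen, was the one that differed in call, at 0.92 in Arg260 (adjusted p = 0.0949) and 1.65 in WT (adjusted p = 0.00604), and its difference in response was not called.

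**Figure D4:**
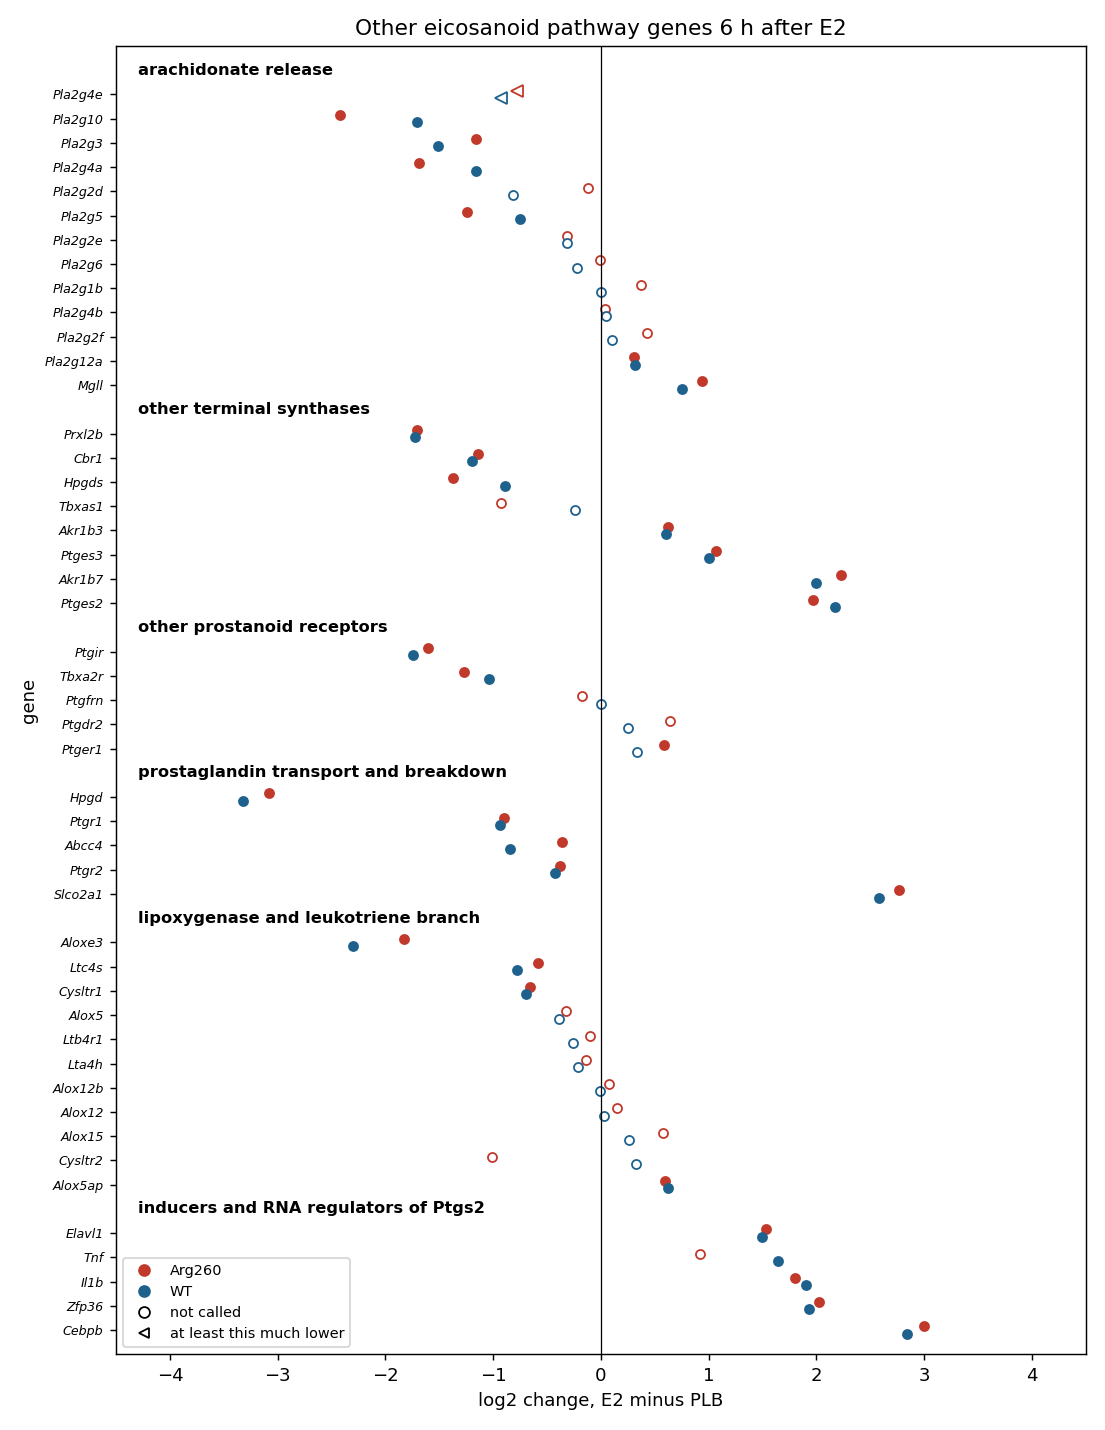
Log2 change, E2 minus PLB, of 47 other eicosanoid pathway and Ptgs2 regulator genes by list, in Arg260 (above) and WT (below). Filled points passed the threshold, and triangles mark an approximate limit for a fall. The legend calls them at least this much lower, but the true fall may be smaller. Within each list the genotypes' points lie close together for most genes, and each of the first 5 lists holds both rising and falling genes in at least 1 genotype.

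The genes whose levels followed each member most closely over the 16 arrays were found by Pearson correlation among 16027 named genes, a measure set mostly by the split between E2 and PLB that all arrays share. Ptgfr was closest to Zfp874a (r = 0.996), Ptgdr to Spice1 (r = 0.994), Ptger2 to Ptprr (r = 0.986), Ptges to Samd8 (r = 0.986), Ptgis to Cox6a1 (r = 0.978), Ptger4 to Mapk8ip2 (r = 0.971) and Ptgs2 to Slc31a1 (r = 0.966). The members not called in Arg260 had looser partners: Ptgds with Pcdhb1 (r = 0.929), Ptger3 with Maoa (r = 0.927) and Ptgs1 with Gstm2 (r = 0.867). An r over 0.95 was reached by 1165 genes with Ptges, 1413 with Ptgdr and 1038 with Ptgfr, so these partners are not distinctive.

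Promoters are shown for the rising members with an entry and for the 2 members that fell most, from RefSeq (GRCm38.p6), each running from 250 bases before the start of the gene to 50 after it. Of the 10 members 9 matched an entry, all but Ptgis. Both strands were searched for the palindromic estrogen response element (GGTCA, any 3 bases, TGACC), the AP-1 site TGANTCA, the cyclic AMP response element TGACGTCA, the E-box CACGTG, the GC box GGGCGG and the TATA box TATAAA. Capitals mark every match in the 4 sequences.
Ptgs2, chr1:150099781-150100080, plus strand: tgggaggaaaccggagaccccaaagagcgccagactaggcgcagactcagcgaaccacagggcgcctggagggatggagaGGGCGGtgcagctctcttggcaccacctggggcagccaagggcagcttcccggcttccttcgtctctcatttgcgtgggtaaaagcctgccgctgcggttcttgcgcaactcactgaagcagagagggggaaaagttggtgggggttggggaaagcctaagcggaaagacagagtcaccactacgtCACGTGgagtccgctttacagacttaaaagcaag
Ptges, chr2:30903248-30903547, minus strand: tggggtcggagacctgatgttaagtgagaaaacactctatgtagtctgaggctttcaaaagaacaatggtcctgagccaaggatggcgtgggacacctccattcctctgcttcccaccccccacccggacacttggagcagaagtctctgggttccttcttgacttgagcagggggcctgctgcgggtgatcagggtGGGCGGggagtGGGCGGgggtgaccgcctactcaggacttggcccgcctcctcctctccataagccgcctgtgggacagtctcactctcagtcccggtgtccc
Ptgfr, chr3:151837479-151837778, minus strand: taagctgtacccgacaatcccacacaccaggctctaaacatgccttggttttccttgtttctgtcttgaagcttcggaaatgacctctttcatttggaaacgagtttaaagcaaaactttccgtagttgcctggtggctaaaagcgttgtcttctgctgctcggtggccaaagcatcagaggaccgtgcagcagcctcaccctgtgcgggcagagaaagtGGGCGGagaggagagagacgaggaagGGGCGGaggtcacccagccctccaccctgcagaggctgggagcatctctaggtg
Ptgdr, chr14:44859326-44859625, minus strand: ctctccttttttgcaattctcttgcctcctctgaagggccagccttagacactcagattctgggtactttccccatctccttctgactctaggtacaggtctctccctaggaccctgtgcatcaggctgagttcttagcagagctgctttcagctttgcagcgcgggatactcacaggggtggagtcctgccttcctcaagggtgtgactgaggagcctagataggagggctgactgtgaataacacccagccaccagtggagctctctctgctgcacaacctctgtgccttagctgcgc
A GC box was found in 5 of the 9 member promoters (Ptger3, Ptger4, Ptges, Ptgfr and Ptgs2), against 35.7% of 32851 promoters, so it stood in rising and falling genes alike. The E-box was found in 1 member promoter, that of Ptgs2 (7.15% of all promoters), and the AP-1 site in 1, that of Ptgds (7.81%). The estrogen response element (0.07% of all promoters), the cyclic AMP response element (1.79%) and the TATA box (13.6%) were found in 0 of the 9. These matches describe letters in a window of 300 bases and say nothing of binding.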

How the data were processed

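Total RNA of 16 uteri samples was labelled with Cy3 and hybridised to 1 array each, per the labels' protocols. Spot intensities were deposited as scanner files, for which the submitters' processing notes name Agilent Feature Extraction (10.10.1.1). Spatial trends within each array had been corrected in the processed signal, per the file headers. A series table of log2 values for 37585 probes was also deposited; the submitters' processing notes name limma, and no other step was stated. Each of its 16 columns had a median of 8.69, and it served only as an alternative.

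From the scanner files, log2 processed signal minus each array's 75th percentile was computed over 59305 non-control spots. Spots with an outlier flag were left out and spots of a probe averaged. Gene names were updated through RefSeq (GRCm38.p6) by accession for 27235 probes, by symbol for 3581 and by synonym for 565; the files' names stayed for 24300. The probe with the highest mean stood for a gene. Genes well above background on at least 4 of 16 arrays were tested with limma 3.58.1 in R 4.3.3 (lmFit, eBayes, 4 group means, 12 residual degrees of freedom), two-sided, with Benjamini-Hochberg adjustment over 25862 genes. The fit was tested on simulated data. Groups and replicate numbers came from the labels. The number of arrays, 4 per group, limits the precision.

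The members and lists were chosen with earlier results of these data known. Named were all members with every probe, Esr1 and Pgr, for each pathway list the called genes with the 2 largest rises and the 2 largest falls in WT, and the gene most alike each member; markers were given by counts and levels. The alternatives were quantile normalization, median scaling, normexp with an offset of 50 and quantile normalization, the series table, no filter, the mean of a gene's probes, a trended robust prior, outlier spots kept, slide as a block, replicate number as a block, each slide alone and each array left out in turn. The labels do not say whether replicate numbers pair the samples, and the main fit did not pair them. Deviations of same-numbered samples of different groups correlated between -0.11 and 0.26. For other numbers the range was -0.17 to 0.12 on the same slide and -0.28 to 0.30 across slides. These ranges cannot exclude a pairing. The Ptgis probe sequences are not reported here.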

Additional observations from a re-analysis of the deposited data

Results flagged for a closer look

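In 2 of the 40 sets of 4 arrays (10 genes in 4 groups), 1 array stood far from the other 3 (its gap to the nearest, over the range of the 4, was above Dixon's 95% critical value), as chance gives in about 1 of 20 sets. Ptgds was at -0.8896 on WT PLB replicate 2, against -0.70 to -0.67 on the other 3. Ptger4 was at 0.9641 on WT PLB replicate 1, against 1.26 to 1.32 on the other 3. Without these arrays the WT changes after E2 were -0.90 for Ptgds and -1.12 for Ptger4, and both stayed called.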

How the results depend on the processing

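Over 28 settings, 7 to 10 members were called in WT and 6 to 8 in Arg260, and 0 members in each of the 3 comparisons between genotypes. In the main fit 63.5% of all genes were called in WT and 64.3% in Arg260. Leaving out single arrays gave 9 to 10 members in WT and 7 to 8 in Arg260. Of 644 values of single members under these settings, 622 kept their direction and call, 14 gained and 7 lost a call, and 1 turned: Ptgs1 in WT, at 0.0202 within slide 2 alone. The cause was not tested. Ptgs1 in WT was also called with the series table (-0.66), normexp (-0.63), a trended robust prior and slide 1 alone (-0.86), and in Arg260 with normexp (-0.42) and the series table (-0.42). With 2 arrays per group, slide 1 alone lost the calls of Ptgds (-0.58), Ptger3 (-0.88) and Ptger4 (-0.94) in WT and of Ptger4 (-0.77) in Arg260. Slide 2 alone lost those of Ptgis (1.21 in Arg260, 0.89 in WT) and Ptger3 in WT (-0.91).

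The fit with the replicate number as a block (replicate block) called 7 members in Arg260 and 10 in WT, adding Ptgs1 (-0.42, limma adjusted p = 0.0477), and 16673 and 16394 genes in all. The labels do not say that same-numbered samples belong together. In the comparison of genotypes after E2, 2 to 3 genes were called with the series table, a trended robust prior or normexp and 1 with quantile normalization. Leaving out Arg260 E2 replicate 3 called 2 genes there, and leaving out WT PLB replicate 3 called 1. None of these genes was a member. At an unadjusted limma p under 0.05 that comparison held 1900 genes, and the one in PLB 638. Depth is limited by signal over background: Ptgdr has no measured level after E2.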
